A study of Homo sapiens with 28 samples.

Results

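The 100 genes described here, coding and noncoding, had the lowest mean differences in TPM, a transcript level scaled by gene length and library size, after lipopolysaccharide (LPS) in the control clones of a human monocytic cell line, U937. A gene was a candidate where its level was at least 5 TPM in all 3 untreated control libraries and lower with LPS in each of the 3 control clones. Of 56809 gene symbols, 8538 met the TPM minimum and 1242 were also lower in each clone; the 100 with the lowest mean difference of log2(TPM + 1), LPS minus untreated, were taken, leaving out mitochondrially encoded genes. The falls in the control clones therefore chose the members and are given as a description, with no test, whereas the 5 knockouts had no part in the choice. All differences below are on the log2(TPM + 1) scale, which understates the change of low genes, unless another scale is named.

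The study sequenced polyadenylated RNA from 28 libraries of 14 U937 clones, each sampled without LPS and with 500 ng/ml of it, with a time point of 6 h for both. The control clones (CTR, 3 clones) had received non-specific guide RNAs, and the others carried a knockout of 1 NF-kB subunit: p50 (2 clones), p52 (2), p65 (3), cREL (2) or RELB (2). A group is thus 2 or 3 clones of 1 line, a gene's level in a library is that of bulk RNA, and a lower level per cell and fewer cells with the transcript cannot be told apart. The labels give no guide sites, and nothing in them says that the 2 libraries of a clone came from separate cultures, so p-values measure the spread between these samples.

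Library totals ran from 12643438 to 22122428 estimated counts, and mitochondrially encoded genes took 4.20 to 7.23% of a library. Batches, as the labels name them, held clones of several genotypes, but batch A held no control clone. In the libraries labelled p65 replicate 1, RELA, which encodes p65, stood at 43.7 TPM untreated and 52.1 with LPS, against 3.20 to 8.19 TPM in the other p65 clones, so the p65 counts and medians below are given also without that clone where it changes them. Of 12 markers of the line, MPO was under 1 TPM on average (0.042 TPM), and CD14, at 1.17 TPM, was close to it. T and NK cell markers summed to between 105.8 and 530.4 TPM per library, nearly all of it NKG7 (mean 339.8 TPM), while CD3D and TRBC1 were listed at 0 in every library. These markers did not move with LPS in the controls (median 0.01 over the 2 genes at the TPM minimum). The same median difference, LPS minus untreated, was −0.03 in p50, 0.14 in p52, 0.28 in p65, −0.003 in cREL and 0.34 in RELB. The part of these markers in the results below was not tested.

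LPS is a bacterial cell wall lipid that cells of the monocyte lineage sense through the receptor TLR4. The receptor releases NF-kB dimers into the nucleus, where they switch on genes for cytokines, chemokines and their own inhibitors. Lowered transcripts are the less studied side of the response: a messenger RNA falls when its gene is transcribed less or when the RNA is broken down faster, and steady levels do not separate these.

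Noncoding and short genes were over-represented among the members. Of the 100, 60 were protein-coding, against 93.6% of the 8538 genes at the TPM minimum. The others were 7 long intergenic noncoding RNAs, 5 antisense RNAs, 7 processed pseudogenes, 6 microRNA genes, 3 small nucleolar RNAs, 3 processed transcripts, 2 transcribed unprocessed pseudogenes, 2 entries without 1 annotated type and single entries of 5 further classes. Of the 98 members with 1 annotated position, spread over 23 chromosomes, 76 overlapped another gene, 33 of them on the same strand, and 27 lay inside another gene. The library protocol does not mark the strand, so reads of a member and of the gene it overlaps cannot always be told apart. Just inside the limit of 100 lay RGS14, BCL6 and HLCS, and just outside AC079466.1, PTPRN2 and EIF4ENIF1, all 6 with a mean difference of −0.56, so the limit separates genes that differ in the third decimal.

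Very short entries held the first places. A total of 15 members had an effective length, the number of positions at which a read could start, of 16.6 to 33.3 bases, against a median of 1342 bases for the other members. They took 8 of the first 10 places and 12 of the first 20, and 13 of them averaged fewer than 10 counts over the 28 libraries. In single control libraries they had 2 to 20 counts untreated and 0 to 15 with LPS. RF00108 led the ranking with a mean difference of −2.99, and its counts were 3, 2 and 4 in the untreated control libraries of replicates 1, 2 and 3 and 1, 0 and 0 with LPS. For such entries a change of 1 or 2 reads is a large change in TPM.

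MicroRNA genes in this group code for hairpins from which a mature RNA of about the printed length is cut; its seed, bases 2 to 8, pairs with target messenger RNAs. The libraries were primed on poly(A) tails, so mature forms, which carry no such tail, were not what was counted; whether the reads belong to longer transcripts from the same place was not tested. The mature sequences of 5 of the 6 microRNA genes, as far as the RefSeq table (GRCh38.p14) lists them, identify these members by their seeds; they run 5′ to 3′ and have the seed in capitals.
hsa-miR-3164: uGUGACUUuaagggaaauggcg
hsa-miR-548aj-3p: uAAAAACUgcaauuacuuuua
hsa-miR-548aj-5p: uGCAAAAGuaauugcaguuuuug
hsa-miR-425-3p: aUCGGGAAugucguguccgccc
hsa-miR-7111-5p: uGGGGGAGgaaggacaggccau
hsa-miR-7111-3p: aUCCUCUCuucccuccucccag
hsa-miR-4263: aUUCUAAGugccuuggcc
No seed was shared. The whole hairpin of MIR7111, the microRNA member with the most counts, spans 72 bases at chr6:35470508-35470579 on the plus strand, inside the ribosomal protein gene RPL10A:
MIR7111 hairpin: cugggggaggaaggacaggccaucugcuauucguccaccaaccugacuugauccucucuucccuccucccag

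The host genes of these entries differed far less. MIR7111 stood at 85.5, 78.4 and 83.8 TPM in the untreated control libraries and at 63.5, 14.0 and 55.7 TPM with LPS, a mean difference of −1.14 from 16 to 18 counts untreated and 3 to 13 with LPS. RPL10A, at 2346 TPM, differed by −0.12. MIR3164 (−2.92) lies in TPCN2, which differed by 0.01, and MIR425 (−1.39) in DALRD3, which differed by 0.27. The same held for small nucleolar RNAs: SNORD14A (−0.97) lies in RPS13 (−0.14), SNORA84 (−0.88) in IARS (−0.02) and SNORA71D (−1.02) in SNHG17 (−0.09). MIR425 itself was higher with LPS in the p65 clones, with 4, 3 and 2 counts untreated and 12, 12 and 7 with LPS in replicates 1, 2 and 3.

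A member's TPM can fall because fewer reads were counted or because the effective length assigned to the gene, which weights its transcript isoforms, rose. Of the 87 members with a mean of 10 or more counts, effective length was higher with LPS by more than 0.1 on the log2 scale in 45, within 0.1 in 42 and lower by more in 0. Its median difference over these 87 was 0.11, against 0.00 over all genes at the TPM minimum. Their median difference was −0.53 in CPM, counts scaled by library size alone, as log2(CPM + 1), and −0.70 in TPM. Of all 100 members, 92 were lower in CPM in each of the 3 control clones, against 19.6% of all genes at the TPM minimum, and the choice on TPM fixes most of that count. In 15 of the 87, the rise in log2 effective length was at least 0.5 times the fall in log2(TPM + 1). The added 1 shrinks the fall of low genes, so this ratio is not a share of the fall.

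BTG1, an antiproliferative gene that restrains cell growth, was the clearest case. Its level was 7.25, 9.55 and 5.91 TPM untreated and 3.21, 6.09 and 2.98 TPM with LPS in CTR replicates 1, 2 and 3, so 1 LPS library lay within the untreated range. Its reads were 12.3, 18.9 and 8.30 CPM untreated and 7.12, 18.8 and 9.85 CPM with LPS, clearly lower in replicate 1, nearly equal in replicate 2 and higher in replicate 3. Its effective length was 2255, 2698 and 1977 bases untreated and 3090, 4430 and 4455 bases with LPS. The mean difference was −0.78 in TPM, −0.17 in CPM and 0.78 in effective length. The pseudogene RPL23AP82 (TPM −0.64, CPM −0.12, length 0.59) and ADARB1, which encodes an enzyme that edits adenosine to inosine in RNA (TPM −0.95, CPM −0.48, length 0.57), leaned the same way. In the plot of reads against length these members lie high, and those with fewer reads and little change in length lie to the left near 0.

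**Figure D1:**
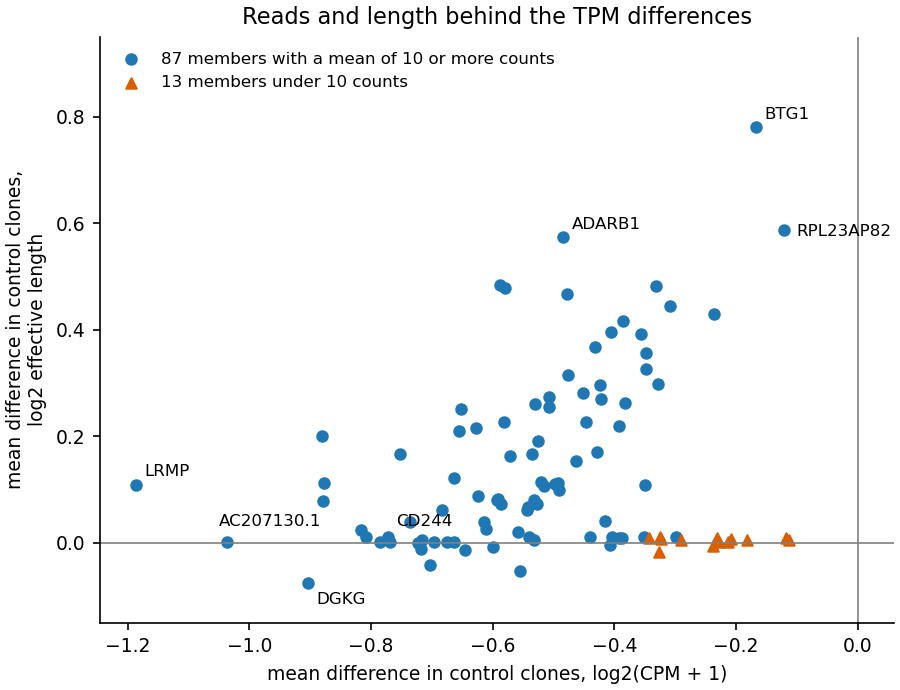
Mean difference with LPS over the 3 control clones for each of the 100 members, split into reads (horizontal axis, log2(CPM + 1)) and effective length (vertical axis, log2 bases). Circles are the 87 members with a mean of 10 or more counts and triangles the 13 under it; BTG1 lies at −0.17 and 0.78, LRMP at −1.19 and 0.11.

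The falls were then read where they had not been used. The rule was run on 2 control clones at a time, with the TPM minimum asked of those 2, and the 100 genes so chosen were read in the clone left out. In the clones that chose them the medians were −1.29 (without CTR replicate 1), −1.17 (without replicate 2) and −1.17 (without replicate 3). In the clone left out the medians were 0.00, 0.00 and 0.31, and 46, 46 and 34 of 100 genes were lower, against 50.5, 41.0 and 60.5% of all genes at that minimum. Exactly no difference was found for 12, 7 and 10 of these genes, and 52, 41 and 36 of them averaged fewer than 10 counts. Among genes with a mean of 10 or more counts the medians in the clone left out were −0.18, −0.01 and 0.27, with 62, 50 and 38 lower. So genes chosen as lowered in 2 control clones were, at the median and without a limit on counts, not lower in the third. The choices shared 32, 40 and 26 genes with the 100 members. With the minimum asked of all 3 untreated control libraries, which also uses the untreated library of the clone left out, the medians there were −0.26, −0.08 and 0.00, with 69, 54 and 50 genes lower. With 10 TPM as the minimum they were −0.22, −0.10 and 0.20. These medians, −0.26 to 0.31 over the settings, stand beside every control fall described below, but the sets are unlike the members. The value of 0.31 comes from a choice without the TPM minimum in the clone left out. There 36 of 100 genes averaged fewer than 10 counts, against 13 of the 100 members.

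**Figure D2:**
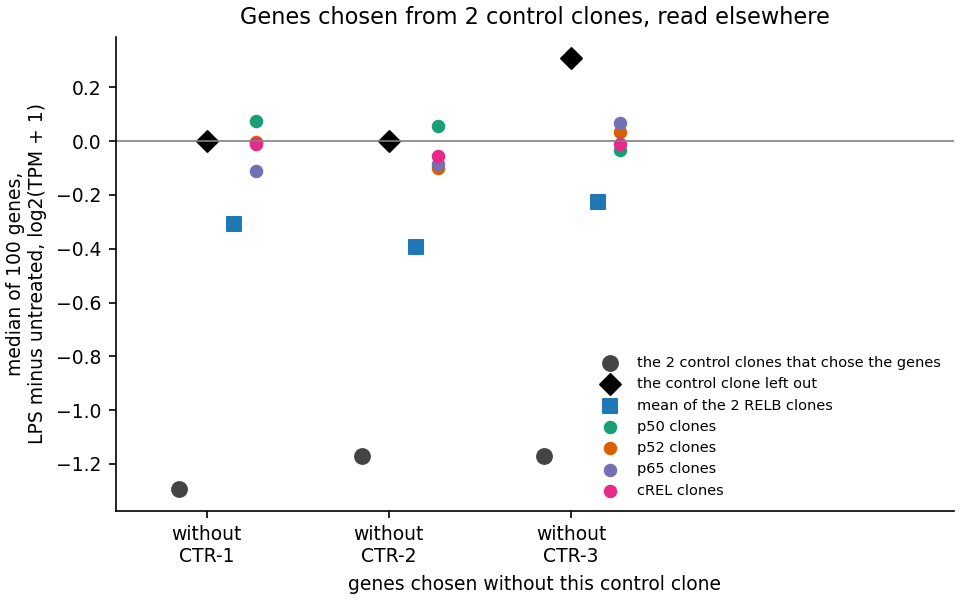
Median difference with LPS, log2(TPM + 1), of 100 genes chosen from 2 control clones (dark circles), read in the control clone left out (diamonds) and in the knockouts (squares for RELB, small circles for the rest). The diamonds lie at 0.00, 0.00 and 0.31, and the RELB squares at −0.31, −0.39 and −0.23.

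As counts, edgeR's quasi-likelihood test with Benjamini-Hochberg adjustment called 1 of the 96 members it could test lower with LPS in CTR, against 0.00537% of all 18624 genes. Members were chosen on this contrast, so nothing is read from the count. The member was AC207130.1, a long intergenic noncoding RNA at chr22:49372924-49377119 (GRCh38, plus strand) with a log2 fold of −1.05 ± 0.21 (SE). A fit with each clone as a block called 5 (AC207130.1, LRMP, DHRS9, ACSS1 and THEM6), against 0.0591% of all genes, and DESeq2 called 2, against 0.0215%. Without any 1 of the 3 control clones the count was 0. The members that edgeR could not test for low counts were AP000553.7, MIR3164, RNA5SP532 and MIR3653.

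Among receptors and membrane proteins (12 members), the median difference was −0.73 in CTR. Here and below, the choice of members favours CTR groups that do not overlap. No share over all genes is set beside such gaps. LRMP, a protein of the endoplasmic reticulum membrane found mostly in blood cells, stood at 11.3, 8.43 and 7.14 TPM untreated and 5.75, 1.41 and 3.45 TPM with LPS, so the groups did not overlap. Its mean difference, −1.24, was the largest of any member over 50 bases of effective length other than AC011524.1. CXCR2, the receptor through which the chemokine CXCL8 draws neutrophils, stood at 11.2, 7.45 and 16.4 TPM untreated and 5.31, 5.20 and 6.20 TPM with LPS. Its groups did not overlap either, and the difference was largest in CTR replicate 3. CD244, a receptor of the SLAM family on NK cells and monocytes, stood at 29.5, 43.4 and 27.3 TPM untreated and 26.0, 22.2 and 11.9 TPM with LPS. P2RY6, a receptor for the nucleotide UDP, stood at 14.9, 9.46 and 10.9 TPM untreated and 8.93, 8.86 and 4.73 TPM with LPS. For both, every LPS library lay below every untreated one, and the smallest differences were in replicate 1 for CD244 and in replicate 2 for P2RY6. The others were the neurotrophin receptor gene NTRK3 (−0.84), the interleukin-17 receptor subunit gene IL17RC (−0.75), BTN3A2 (−0.83), TSPAN32 (−0.67), VSIG10 (−0.69), TM7SF3 (−0.70), SCAMP5 (−0.72) and TMEM54 (−0.63).

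The 6 transcription factors and chromatin enzymes had a median of −0.63 in CTR. BCL6, a repressor of inflammatory and differentiation genes, stood at 9.32, 7.64 and 13.1 TPM untreated and 6.91, 5.70 and 6.36 TPM with LPS, with no overlap. RUNX2, a factor of the Runt family, stood at 15.9 TPM untreated and 5.76 with LPS in CTR replicate 2, but at 19.8 and 17.9 in replicate 3 and 12.2 and 8.13 in replicate 1, so its groups overlapped. HES6 (−0.76), the clock-controlled factor gene DBP (−0.60), the deacetylase gene HDAC11 (−0.69) and ZBTB44 (−0.57) made up the rest.

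Of 9 members in signalling (median −0.74), DGKG, which encodes a kinase that removes diacylglycerol, stood at 5.90, 5.60 and 6.68 TPM untreated and 5.44, 2.40 and 2.20 TPM with LPS. Nearly all of its fall came from replicates 2 and 3. ARHGAP8 (−1.004) shares its strand with a read-through gene, PRR5-ARHGAP8, and the 2 may share reads. STIMATE (−0.98), which helps calcium entry at contacts of the endoplasmic reticulum, had a length difference of 0.48, and PTPN4 (−0.74), a tyrosine phosphatase gene, one of 0.40. RGS14 (−0.56) and RGL4 (−0.61) act on G proteins.

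The 13 members in metabolism and transport had a median of −0.65 in CTR. ACSS1, a mitochondrial enzyme that turns acetate into acetyl-CoA, stood at 15.4, 16.8 and 11.5 TPM untreated and 7.67, 12.7 and 7.03 TPM with LPS, where the LPS value of replicate 2 lay above the untreated value of replicate 3. CYBA, the p22phox subunit of the NADPH oxidase that makes superoxide, stood at 49.2, 39.1 and 35.3 TPM untreated and 24.0, 25.8 and 29.3 TPM with LPS. These did not overlap, and the fall in replicate 3 was the smallest. DHRS9, a short-chain dehydrogenase gene, stood at 14.1, 9.10 and 7.94 TPM untreated and 11.1, 3.66 and 3.46 TPM with LPS, and its levels in knockouts ran from 4.97 to 40.9 TPM. SLC25A22, a mitochondrial glutamate carrier (−0.59), SLC27A1, a fatty acid transporter (−0.60), and HLCS, which attaches biotin to carboxylases (−0.56), were further members.

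The 4 genes of cilium and centrosome had a median of −0.83 in CTR. LRRC45, a linker between centrosomes, stood at 7.97, 7.07 and 5.29 TPM untreated and 2.51, 3.18 and 3.15 TPM with LPS. BBS1, a subunit of the BBSome that carries proteins into cilia, stood at 8.29, 13.9 and 9.04 TPM untreated and 3.73, 4.36 and 7.26 TPM with LPS. KIAA0586, needed to form cilia, stood at 29.7, 22.9 and 30.5 TPM untreated and 15.5, 13.8 and 19.1 TPM with LPS. Groups did not overlap for any of these 3, which the choice of members favours. TMEM218 (−0.59) was the fourth.

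Among 16 long noncoding and antisense RNAs (median −0.75), AC207130.1 stood at 32.4, 30.9 and 58.2 TPM untreated and 17.6, 18.0 and 21.3 TPM with LPS. The LPS values lay close together and the untreated value of replicate 3 was the highest. AC011524.1, on chromosome 19, stood at 48.6, 30.6 and 25.8 TPM untreated and 19.1, 10.4 and 5.15 TPM with LPS, a mean difference of −1.63. AC083805.2, antisense to the phosphatase gene CTDSP2, stood at 12.7, 9.98 and 14.0 TPM untreated and 8.76, 6.50 and 3.68 TPM with LPS. The most abundant members were LINC00426 (96.4 ± 11.4 TPM untreated in CTR, SD, n = 3), MIR7111 (82.6 ± 3.73), THEM6 (59.7 ± 20.7), SNORD14A (59.2 ± 13.7), DLEU1 (54.3 ± 19.8) and TM7SF3 (53.5 ± 17.1).

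**Figure D3:**
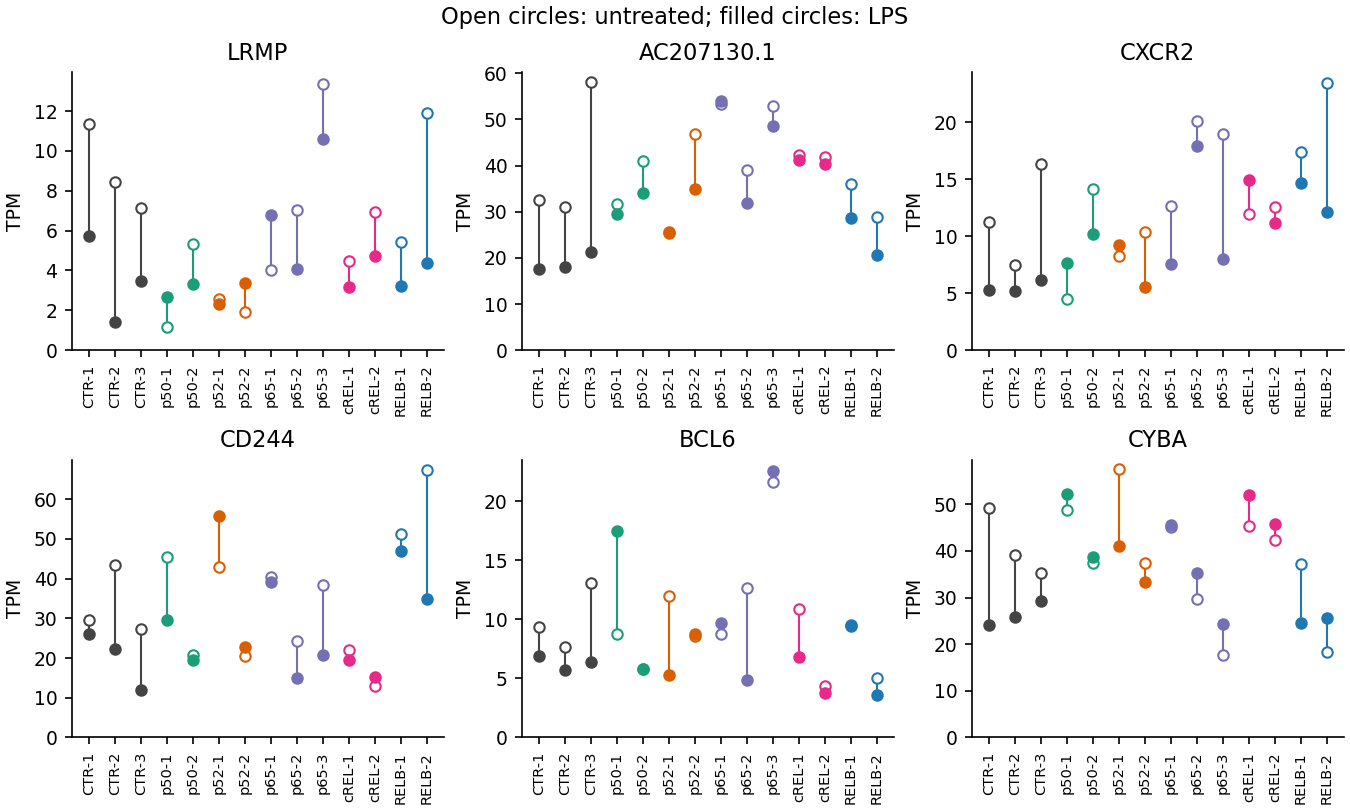
TPM of 6 members in each of the 14 clones, untreated (open circles) and with LPS (filled circles), joined within a clone. In the 3 control clones every filled circle lies below its open circle by the choice of members; in the knockouts both orders occur, as for CYBA in p65 replicate 3 (17.6 to 24.2) and BCL6 in p65 replicate 2 (12.6 to 4.89).

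Promoters gave no shared feature that the search could show. RefSeq promoters (250 bases before to 50 after the start) were matched for 51 of the 100 members, whose median GC content was 65.7%, against 58.3% for all 27305. Both strands were searched for 7 motifs. The NF-kB consensus was found in 2 of 51 (3.92%, NTRK3 and HLCS) against 5.72% of all promoters, and GGGNNTTTCC, whose letters overlap with it, in 2 (3.92%, TM7SF3 and CMC4) against 1.92%. The AP-1 motif TGANTCA was in 3 (5.88%) against 7.76%, the PU.1 motif GAGGAAGT in 2 (3.92%) against 2.54%, and the E-box CACGTG in 2 (3.92%) against 7.44%. TTCNNNGAA, a motif that STAT factors and BCL6 share, was in 5 (9.80%) against 7.88%, among them the promoters of CD244, DBP and BCL6 itself. TTTCNNTTTC, an interferon-response motif, was in 0 against 3.65%. A match is a run of letters, not a measured site. The 3 windows of 60 bases below (GRCh38.p14, minus strand, 5′ to 3′) show the NF-kB-like letters in capitals, at positions −146 to −137 (NTRK3, chr15:88256851-88256910), −91 to −82 (TM7SF3, chr12:27014441-27014500) and −127 to −118 (CMC4, chrX:155071229-155071288) from the start.
NTRK3: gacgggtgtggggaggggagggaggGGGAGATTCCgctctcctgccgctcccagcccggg
TM7SF3: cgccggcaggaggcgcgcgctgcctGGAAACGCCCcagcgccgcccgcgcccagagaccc
CMC4: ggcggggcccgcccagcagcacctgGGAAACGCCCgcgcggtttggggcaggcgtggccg

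In p50, p52, p65 and cREL the members had medians near 0. Their median difference with LPS was 0.05, 0.04, −0.05 and 0.07 in that order, against 0.01, 0.08, −0.05 and −0.02 for all 8538 genes at the TPM minimum. By clone the medians were 0.13 and −0.12 in p50 replicates 1 and 2, −0.01 and 0.04 in p52, and 0.09 and 0.03 in cREL. In p65 they were 0.04, 0.06 and −0.22 in replicates 1, 2 and 3, and in replicate 3 all genes had a median of −0.19. Without the clone labelled p65 replicate 1, the p65 median was −0.11. Of 100 members, 37, 57, 51, 47, 45, 44, 63, 47 and 46 were lower in these 9 clones, in the order p50, p52, p65 and cREL. Of all genes at the TPM minimum, 48.4, 51.2, 39.8, 38.9, 56.3, 45.9, 65.3, 47.3 and 56.5% were lower in the same order. The member counts lay above these shares in p50 replicate 2 and both p52 clones, and below them in the rest.

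The RELB median, −0.27, was the lowest of the 5 knockouts, against −0.07 for all genes at the TPM minimum. By clone the medians were −0.22 in replicate 1, where 59 of 100 members were lower, and −0.44 in replicate 2, where 74 were lower. All genes at the TPM minimum had medians of −0.01 and −0.16 in the same clones, and 51.4 and 68.2% of them were lower. RELB replicate 1 did not stand below p65 replicate 3 (−0.22, 63 members lower), where all genes were lower too. For the 70 members under 20 TPM the medians were −0.25 and −0.43, against −0.06 and −0.24 for genes of that level, and for the 30 members at 20 TPM or more they were −0.12 and −0.48, against 0.01 and −0.14. RELB replicate 1 was in batch A and replicate 2 in batch B, and in each of these 2 batches the RELB clone had the lowest median of the knockout clones; batch C, which holds p65 replicate 3, held no RELB clone. The untreated library of RELB replicate 2 had the lowest total of all, 12643438 counts; its part in the result was not tested. On the TMM-scaled CPM scale, without effective length, the rule was run anew. The 100 genes it chose, 35 of them members, had a RELB median of −0.14.

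**Figure D4:**
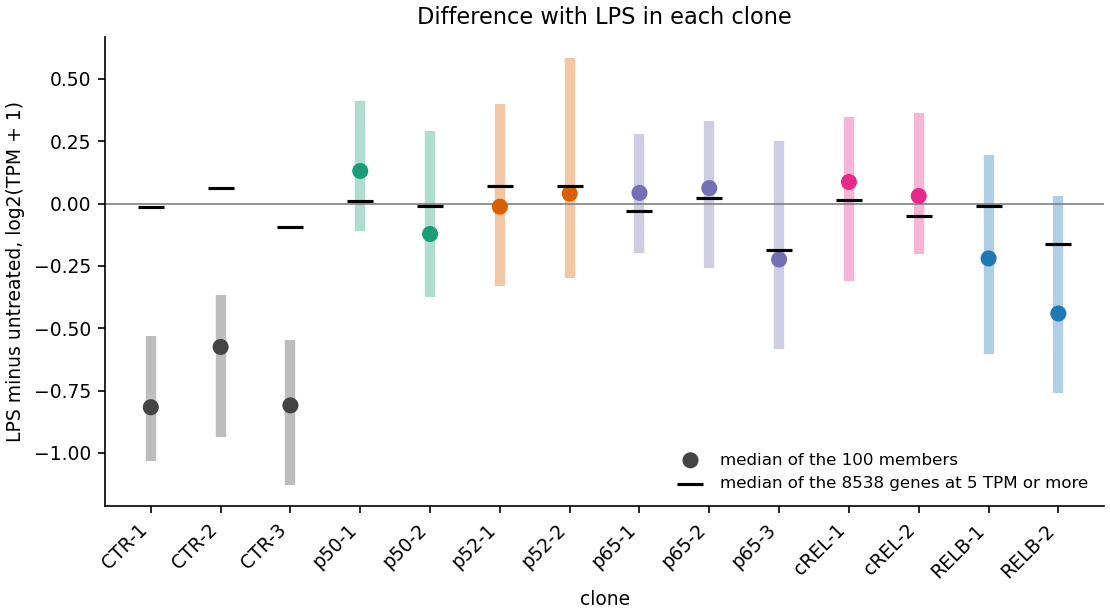
Difference with LPS, log2(TPM + 1), in each of the 14 clones. Points are medians of the 100 members, vertical bars run from the first to the third quartile, and black dashes are medians of all 8538 genes at 5 TPM or more; RELB replicates 1 and 2 lie at −0.22 and −0.44, and the control clones, which chose the members, at −0.82, −0.58 and −0.81.

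Gene by gene, no knockout showed a member that passed the test. edgeR called 0 of the 96 tested members with LPS, in either direction, in p50, p52, p65, cREL and RELB. The background of genes called lower was 0% in each of the first 4 and 0.00537% in RELB, and of genes called higher 0.0161, 0.0215, 0.0268, 0.0107 and 0.123%. At an unadjusted p under 0.05, 0, 0, 1, 0 and 3 members were lower, where 0.827, 0.848, 0.655, 0.902 and 1.37% of all genes were, and 1, 2, 1, 1 and 0 were higher, where 0.961, 1.11, 0.907, 0.816 and 1.52% of all genes were. Without p65 replicate 1, edgeR called 0 of 95 members in p65, against 0% of all genes lower and 0.0217% higher. DESeq2 called 0 members in each of the 5 knockouts, where it called 0.0107, 0.0161, 0, 0.00537 and 0.0268% of all genes lower and 0.043, 0.0591, 0.043, 0.0376 and 0.285% higher. With clones as blocks edgeR also called 0 members, against 0% of all genes lower in the first 4 knockouts and 0.00537% in RELB, and 0.0322, 0.0268, 0.0161, 0.0215 and 0.43% higher. By sign, 63 of 96 members had a negative log2 fold in RELB, against 49.4% of all genes, and 48, 49, 47 and 45 in p50, p52, p65 and cREL, against 52.1, 47.8, 47.5 and 50.3%.

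The 3 members below an unadjusted p of 0.05 in RELB were LRRC45, AC011524.1 and AC083805.2. LRRC45 stood at 2.60 and 8.61 TPM untreated and 1.18 and 4.04 TPM with LPS in RELB replicates 1 and 2, which gave −1.14 ± 0.40 as the log2 fold (SE; edgeR adjusted p = 1). AC011524.1 stood at 32.9 and 65.3 TPM untreated and 10.1 and 22.2 TPM with LPS (log2 fold −1.44 ± 0.57, SE; edgeR adjusted p = 1). AC083805.2 stood at 19.99 and 51.20 TPM untreated and 12.37 and 19.92 TPM with LPS (−0.94 ± 0.42, SE; edgeR adjusted p = 1). The groups of AC011524.1 did not overlap, and those of AC083805.2 were barely apart, at 19.99 TPM untreated against 19.92 TPM with LPS. Those of LRRC45 overlapped, because its level differed more between the clones than with LPS. With 2 clones in a group such gaps carry no test, and no share over all genes is set beside them.

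A difference of −0.5 or lower in both RELB clones was seen in 12 members, against 2.28% of all genes at the TPM minimum. Besides these 3 they included LRMP, DGKG, VSIG10, the pseudogene AL033519.1 and 4 short entries (AP000553.7, RNU6-951P, RF00139 and RNA5SP394). LRMP stood at 5.43 and 11.9 TPM untreated and 3.24 and 4.36 TPM with LPS, and VSIG10 at 9.31 and 23.6 against 5.36 and 13.6. In both, replicate 2 was higher than replicate 1 both untreated and with LPS, and the untreated and LPS groups were apart for LRMP but overlapped for VSIG10. Reads in RELB replicates 1 and 2, untreated to LPS, went from 14.91 to 12.06 and from 26.57 to 21.86 CPM for VSIG10. For DGKG they went from 4.25 to 4.56 and from 9.98 to 4.83 CPM, so they were higher with LPS in replicate 1. LRMP reads were lower in both clones, from 5.39 to 3.88 and from 11.55 to 4.23 CPM. The part of effective length in these TPM differences was not tested. A TPM difference of −0.5 or lower in every clone was seen in 5 members in p50 (0.363% of all genes) and 3 in p52 (0.878%). In cREL it was seen in 4 (0.621%). In p65 it was seen in 2 (0.129%), and in 4, against 0.773%, in the p65 clones other than replicate 1. The member count thus lay above the share over all genes in each of the 5 knockouts, RELB included. Rises of 0.5 or more were not counted. All genes at the TPM minimum were 93.6% protein-coding, against 60 of the 100 members. By role, the RELB median was −0.55 for the 12 receptors and membrane proteins (8 of them lower in both clones), −0.41 for the 16 long noncoding and antisense RNAs (10), −0.39 for the 6 transcription factors and chromatin enzymes (2) and −0.28 for the 13 in metabolism and transport (5). It was −0.09 for the 9 in signalling (2), among which MPRIP went from 3.67 to 11.1 TPM in replicate 1 and from 20.5 to 15.3 in replicate 2. The 15 entries under 50 bases of effective length had a RELB median of −0.49 (7) and the 4 genes of cilium and centrosome −0.33 (2). It was −0.18 for the 14 other protein-coding members (4), −0.18 for the 10 pseudogenes (3) and −0.16 for the 2 in RNA editing (1). AP000553.7 is among both the short entries and the pseudogenes. Over all 100, 43 were lower in both RELB clones, against 32.9% of all genes at the TPM minimum, and 10 were higher in both, against 13.2%.

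**Figure D5:**
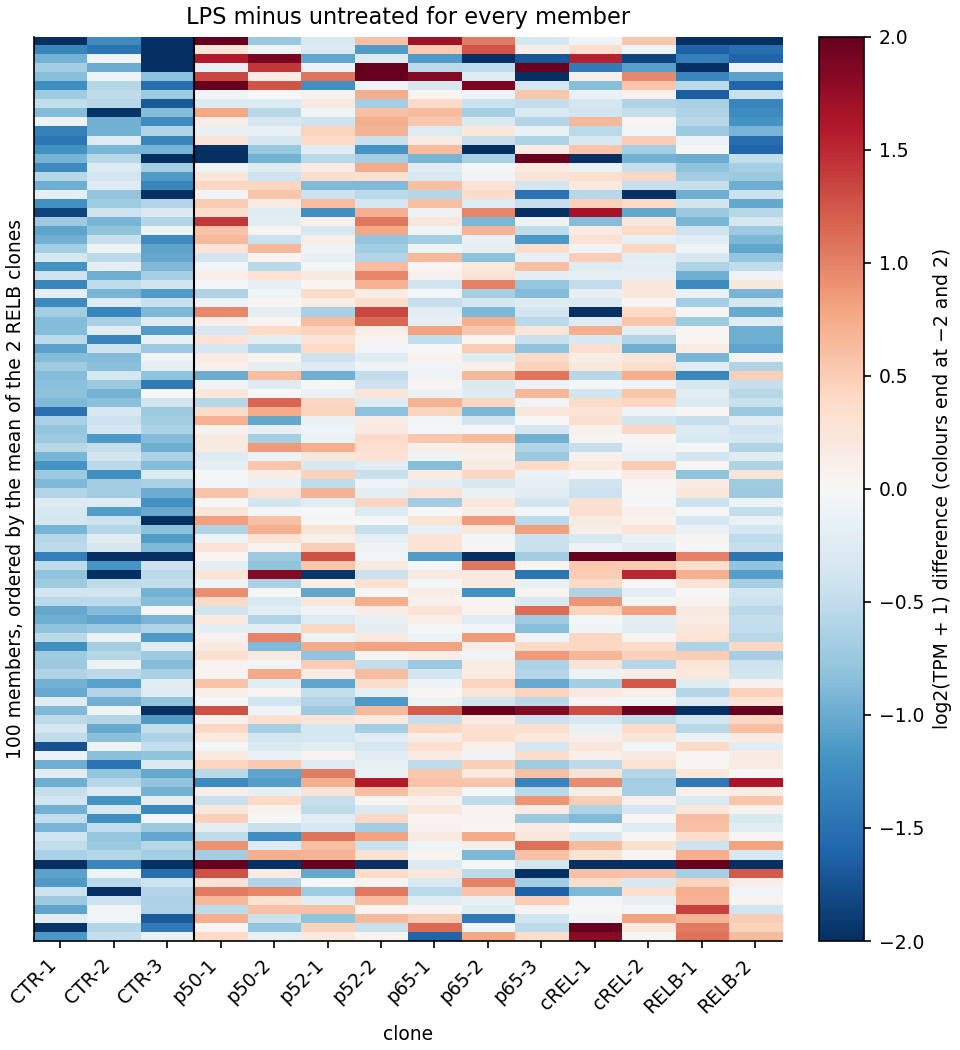
Difference with LPS, log2(TPM + 1), of each of the 100 members (rows, ordered by the mean of the RELB clones) in each of the 14 clones (columns); blue is lower and red higher with LPS, and colours end at −2 and 2. The 3 control columns are blue throughout because they chose the members. In the 9 columns from p50 to cREL 37 to 63 of 100 rows are lower, against 38.9 to 65.3% of all genes at the TPM minimum.

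The difference in response between RELB and the other 4 knockouts was tested directly. edgeR called 0 members, against 0.00537% of all genes lower and 0% higher, with 3 members lower (LRRC45, AC011524.1 and ANKRD35) and 0 higher at an unadjusted p under 0.05, where 1.17 and 0.945% of all genes were. DESeq2 called 0 members, against 0.0161% of all genes lower and 0.0483% higher. By sign 67 of 96 members were lower in RELB, against 48.7% of all genes, with a median of −0.16 against 0.01. The same comparison for p50, p52, p65 and cREL also gave 0 members by edgeR, with a background of 0% in each direction, and 0 by DESeq2, with 0, 0.0161, 0 and 0.00537% of all genes lower and 0.00537, 0.0107, 0.0107 and 0.0161% higher. At an unadjusted p under 0.05, 0, 0, 1 and 0 members were lower, where 0.666, 0.703, 0.564 and 0.822% of all genes were, and 1 was higher in each, where 1.13, 1.24, 0.886 and 0.784% were. A lower response in RELB than in the other knockouts was therefore not shown for any single member.

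Averaged over the 5 knockouts with equal weight, edgeR called 0 of 96 members lower, against 0%, and 0 higher, against 0.177%. DESeq2 called 0 members in this comparison, against 0.0107% of all genes lower and 0.311% higher. AC083805.2 was the 1 member below an unadjusted p of 0.05 (log2 fold −0.42 ± 0.18, SE; edgeR adjusted p = 1), and it was lower in 9 of 11 clones. No member was lower, or higher, in all 11 knockout clones, where 0.0351 and 0.387% of all genes at the TPM minimum were, and none was in the 10 clones without p65 replicate 1, where 0.0937 and 0.586% were. MIR548AJ2 was lower in 10, on 0 to 14.5 counts per library, and AC109587.1, AC207130.1, AC083805.2, KIAA0586, TMTC4 and SLF1 in 9. AC207130.1, the 1 member called in CTR, differed by −0.16 ± 0.11 (SE; edgeR adjusted p = 1) on average, and went from 35.9 to 28.7 TPM and from 28.9 to 20.6 TPM in the RELB clones, from 53.4 to 54.1 in p65 replicate 1 and from 42.4 to 41.2 in cREL replicate 1. Over the 11 clones the lowest means were those of MIR548AJ2 (−1.21), SNORA71D (−0.84), AC109587.1 (−0.56), RNU6-951P (−0.55), MIR3164 (−0.46), AC083805.2 (−0.41), CXCR2 (−0.31) and SLF1 (−0.29). The highest were MIR425 (0.88), PRELID2P1 (0.32), MIR3653 (0.32), AC098484.3 (0.30), TMEM183B (0.25) and RNA5SP394 (0.23).

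Some members were higher with LPS in a knockout. CXCR2 went from 11.98 to 14.93 TPM in cREL replicate 1 and from 9.15 to 13.8 CPM there, but from 23.5 to 12.1 TPM in RELB replicate 2. In p50 replicate 1 it went from 4.48 to 7.62 TPM while its reads went from 5.79 to 4.50 CPM and its effective length from 1707 to 776 bases. BCL6 in the same clone went from 8.73 to 17.5 TPM with reads of 13.8 and 14.3 CPM and effective lengths of 2085 and 1074 bases. BTG1 went from 3.12 to 5.81 and from 0.866 to 4.57 TPM in the p52 clones, where its log2 fold was 0.99 ± 0.44 (SE; edgeR adjusted p = 1), and from 10.7 to 3.88 and from 8.57 to 3.45 TPM in the p50 clones. Its reads in p50 replicate 1 were 12.9 and 13.1 CPM while its effective length went from 1591 to 4434 bases, and in p50 replicate 2 they went from 11.5 to 5.11 CPM. TUT1, which adds uridines to RNA, had a log2 fold of 0.54 ± 0.25 in p50 and 0.53 ± 0.25 in p52 (SE; edgeR adjusted p = 1 in both). CYBA, lower in all 3 control clones, was higher with LPS in both p50 clones (48.7 to 52.3 and 37.4 to 38.7 TPM). It was also higher in both cREL clones and all 3 p65 clones, though in p65 replicate 1 only from 45.1 to 45.6 TPM. It was lower in both p52 clones (57.6 to 41.2 and 37.4 to 33.3 TPM). The RELB clones differed in direction (37.2 to 24.6 and 18.3 to 25.6 TPM in replicates 1 and 2). Averaged over the 5 knockouts, its log2 fold was 0.01 ± 0.17 (SE). Its reads in CTR replicate 3 were nearly equal, at 13.8 CPM untreated and 13.5 with LPS.

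Untreated levels of the members were then compared between knockouts. Each knockout was compared with the other 4 in untreated libraries, and edgeR called 0 of 96 members in each. The background of genes called lower and higher was 0.0859 and 0.29% in RELB and 0% in both directions in p50, p52, p65 and cREL. At an unadjusted p under 0.05, 4, 2, 5, 4 and 4 members were lower and 2, 1, 7, 2 and 10 higher in p50, p52, p65, cREL and RELB. Of all genes, 3.82, 1.88, 4.3, 2.31 and 5.27% were lower and 3.39, 1.96, 5.95, 2.68 and 7.09% higher at that threshold, so the members' counts lie near the background. Without p65 replicate 1, edgeR called 1 of 95 members, DHRS9, higher in RELB (31.9 and 40.9 TPM), against 0.325% of all genes. DESeq2 called 1, ACSS1 in p65 (edgeR log2 fold 0.68 ± 0.17, SE; edgeR adjusted p = 0.207), against 0.44% of all genes called higher there, and 0 in the others. Its background of genes called lower was 0.0698, 0.0161, 0.183, 0.0483 and 0.693% in the same order, and of genes called higher in p50, p52, cREL and RELB 0.0107, 0.00537, 0 and 0.827%. ACSS1 stood at 21.5, 19.8 and 30.1 TPM in the untreated p65 libraries and at 8.75 to 20.03 TPM in the other knockouts, a narrow overlap. CD244 stood at 51.3 and 67.2 TPM in RELB and 22.02 and 12.91 TPM in cREL.

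Beside the controls, the members stood lower in untreated knockouts and higher in LPS-treated ones. The control libraries chose the members as high untreated and low with LPS, so these counts describe that choice as well as the knockouts and carry no test. Untreated, 82, 69, 58, 75 and 60 of 100 members were lower than in CTR in p50, p52, p65, cREL and RELB, where 61.6, 54.0, 31.6, 51.7 and 42.5% of all genes were. With LPS, 24, 11, 8, 11 and 23 were lower, where 58.7, 43.9, 34.6, 51.2 and 49.4% of all genes were. Without p65 replicate 1 the p65 counts were 57 untreated, against 33.2%, and 16 with LPS, against 35.75%.

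Few members were in the 17 gene lists, 1 of which holds LPS-raised genes. The lists held 4 of the 100 members, against 5.29% of all genes at the TPM minimum, a share near the background. Of the 17 lists, 15 held 0 members; the list of myeloid and quiescence transcription factors held BCL6 and RUNX2, and that of growth-arrest genes BTG1 and RGS14. In CTR edgeR called 0 genes lower in each of the 17 lists, against 0.00537% of all genes, while 19 of 27 tested genes in the list of NF-kB feedback and LPS-raised genes were called higher (median log2 fold 3.09). The median log2 fold was −0.03 for 39 genes of DNA replication, −0.04 for 34 of mitosis, −0.03 for 42 of cytosolic ribosomal proteins and −0.07 for 49 of the respiratory chain, against 0.00 over all genes tested. The members had a median of −0.61 on this scale in CTR, by choice, and −0.15 in RELB, against 0.01 over all genes there.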

How the data were processed

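Poly(A)-primed, PCR-amplified libraries were quantified with Salmon 0.11.3 on GRCh38 after FastQC 0.11.7, per the submitters' processing notes; for settings, annotation and read filters no source used here gives details. The authors deposited estimated counts per gene symbol (41.0 to 47.5% of nonzero values whole), TPM, and a score table of effective lengths in bases. All 56809 symbols matched GENCODE 29, whose positions are used.

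The members were taken from TPM with a pseudocount of 1. The members, gene lists and role groups were chosen with earlier results of these data known. Genes named were the 10 lowest in CTR, 3 on either side of the limit, the 6 most abundant, the 8 lowest and 6 highest over the knockout clones and members of lists that hold 2; other genes, such as CXCR2, CD244 and CYBA, were named after their values were seen. Counts, rounded, were tested with edgeR 4.0.16 in R 4.3.3: filterByExpr (minimum count 10, minimum total 15; 18624 genes), TMM, 12 groups plus batch, robust quasi-likelihood fit with 14 residual degrees of freedom, biological coefficient of variation 31.7%, and Benjamini-Hochberg adjusted p under 0.05 over all genes. The main fit treats the libraries of a clone as independent.

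The labels give both libraries of a clone the same number. Their deviations from group means correlated at 0.204 to 0.44, over 0.1 in all 14 clones. Batch was not removed from these deviations, and in a group of 2 clones both clones have the same value by construction. The correlations therefore cannot show pairing by clone, which rests on the labels. The fit with each clone as a block has 8 residual degrees of freedom and a coefficient of variation of 21%. No replicate pair held identical values. Alternatives were DESeq2 1.42.0, other size factors, no filter, no batch term, an effective length offset, each clone left out, single batches, other member choices, pseudocount 0.1 and TMM-scaled CPM. The fits were tested on simulated data. Intervals from counts cover no PCR error, because no molecular identifiers were used. Figures were drawn with matplotlib 3.10.9.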

Additional observations from a re-analysis of the deposited data

Results flagged for a closer look

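The cREL and RELB knockouts had median member differences with LPS of opposite sign, 0.0744 in cREL and −0.27 in RELB (log2(TPM + 1), 100 members). Both cREL clones lay above 0 (0.09 and 0.03) and both RELB clones below it (−0.22 and −0.44). This difference between the 2 groups was not tested. Under 7 other member choices or scales (a minimum of 10 TPM, 50 or 200 members, CPM, and members chosen without each control clone) cREL lay between −0.0533 and −0.0047, so its side of 0 depends on the choice, whereas RELB stayed below 0 under these 7.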

How the results depend on the processing

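Members called lower with LPS in CTR numbered 2 without a filter, 2 by DESeq2, 0 without a batch term and 5 with the replicate block of each clone, and 0 to 1 with a clone left out. The block changed no other call. All 223 counts of members over the 11 comparisons of LPS in knockouts were 0 under every alternative. These counts hold members called lower with LPS and, for differences in response between knockouts, members called in either direction. For untreated levels, no filter gave 1 member in p50, 3 in p65, 1 in cREL and 2 in RELB, DESeq2 gave 1 in p65, and a clone left out gave 0 to 1 in RELB. No share over all genes is set beside the counts without a filter, in CTR or for untreated levels. None is set beside the count without RELB replicate 1 either, so nothing is read from these counts. In p52 the member median was −0.0366 for 50 members, −0.0619 in CPM, −0.0023 and −0.10 chosen without CTR replicate 1 or 2, 0.13 for protein-coding members and −0.0126 to 0.0400 with a clone left out. In cREL it was −0.0047 at a minimum of 10 TPM, −0.0533 for 50 and −0.0151 for 200 members, −0.0166 in CPM, −0.0113, −0.0533 and −0.0117 chosen without CTR replicates 1, 2 and 3, 0.0347 for protein-coding members and 0.0302 to 0.0863 with a clone left out. In RELB it was −0.42 for 50 members and −0.44 to −0.22 with a clone left out. In control replicate 1 left out of the choice it was −0.22 at 10 TPM, −0.26 with the minimum in all 3 libraries and −0.18 for genes with 10 or more counts; in replicate 3 it was −0.0013 with the minimum in all 3. For the values in CPM the 100 genes were chosen anew on that scale, and 35 of them were members. Protein-coding members, the minimum in all 3 and the count limit were added after seeing the data. The cause of these shifts was not tested. Of all values, 478 were counted as kept, 35 moved and 4 lost a call (AC207130.1 in CTR). A median counted as kept where it shifted by less than the SD between clone medians, so a kept median could change sign. With a clone left out the member median ran from −0.122 to 0.1305 in p50 and from −0.1126 to 0.021 in p65. Groups held 2 or 3 clones and 13 members averaged under 10 counts, which limits precision; no detection limit was computed.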
